A study of Mus musculus with 2 samples.

Results

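Oxtr, Lnpep, Edn1, Ednra, Ednrb, Agtr1a, Rgs2 and Rgs5, genes of oxytocin, endothelin and angiotensin signaling, were followed in uteri of pregnant mice with normal or repressed vascular endothelial growth factor (VEGF). The genes were chosen by name, with earlier results of these data known, and all 8 were found among the 14678 genes of the deposited table. Only 4 of them encode receptors of these hormones (Oxtr, Ednra, Ednrb and Agtr1a), while Edn1 encodes a ligand, Lnpep a peptidase, and Rgs2 and Rgs5 inhibitors of G-protein signaling. All mice were double transgenic (VEGFtetO/tetO/beta-AKtg/wt), with tet operators in the VEGF promoter and a tetR-Krab repressor expressed from the β-actin promoter throughout the body. Dox+ females ate chow with doxycycline (200 mg/kg), which releases the repressor, and are the VEGF-normal group. Dox− littermates were taken off doxycycline at 3 to 4 weeks of age, which leaves VEGF repressed. Uteri were collected at the age of 9 to 10 weeks on gestation day 2.5 (G2.5), before implantation. Total RNA of 3 uteri was pooled for each condition and sequenced as 1 library by digital gene expression (DGE) tag profiling, in which short tags are counted for each gene. VEGF level and intake of doxycycline cannot be told apart in this design, and neither can the conditions and the individual libraries.

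Oxytocin is a peptide hormone that contracts the myometrium through the oxytocin receptor, which couples to Gq proteins and releases calcium from stores inside the cell. The receptor gene is known to respond to estrogen and progesterone, and it is expressed in the myometrium and in the endometrium. Endothelin-1 and angiotensin II act on smooth muscle through receptors of the same class and constrict vessels, whereas the endothelin B receptor of the endothelium leads to release of nitric oxide. RGS proteins speed up the hydrolysis of GTP by G proteins and so shorten the signal of these receptors.

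The Dox+ library held 5985925 clean tags and the Dox− library 5844314. A copy is 1 counted tag, and TPM is the number of copies per 1000000 clean tags of the library. Vegfa had 247 copies in Dox+ and 125 in Dox−. The uterine genes Hoxa10 (3120 and 1060 copies) and Hoxa11 (2573 and 785) were detected in both libraries and fell in Dox−, to levels 2.87-fold and 3.20-fold lower. Of the marker lists, each marker of the uterine epithelium had a higher share of tags in Dox− (7 of 7), with 5168 copies in Dox+ and 7363 in Dox− in sum. Each marker of smooth muscle (8 of 8, 39096 and 26305 copies) and of pericytes (6 of 6, 1035 and 603 copies) had a lower one, and so did 6 of 8 endothelial markers (1214 and 766 copies in sum). Of the 6 stromal markers, which include Hoxa10 and Hoxa11, 4 had a lower share of tags in Dox− and 3 were called lower, with a median log2 ratio of -0.51. Their sum was higher (32862 and 38914 copies) through Col1a1, a collagen gene with 23017 and 33696 copies. The leukocyte list (450 and 635 copies, 6 of 7 markers) was higher in sum. Those of adipocytes (1468 and 1120, 4 of 4 markers) and skeletal muscle (3492 and 1274, 4 of 4) were lower. Most copies of the skeletal muscle list came from Acta1 (3385 and 1241). The sum of ovary and oviduct (37 and 15) was lower through Ovgp1 (25 and 2) alone, while Star had 12 and 13. Every marker listed in the table had a tag in both libraries. In whole uteri, fewer cells of a type and less RNA per cell cannot be told apart.

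Sequence upstream of the genes with a call is shown here because Oxtr went one way and Rgs2 and Ednrb the other. The 250 bases before the RefSeq start of 7 of the 8 genes were taken from RefSeq (GRCm38.p6). Each was found as an exact match on 1 strand of its own chromosome in NCBIM37, the assembly that UCSC names mm9. Other chromosomes were not searched. In the window of Oxtr (chr6:112439820-112440069, minus strand), 158 of the bases lie in exons of 1 of its 2 annotated transcripts, and therefore 2 sites of 30 bases are printed. The window lies inside the annotated span of the gene (112423678 to 112440884). Whether the 2 printed sites lie in those exons was not recorded. The motif AGGTCA, a half-site of the estrogen response element, stood 98 to 93 bases before the start of Oxtr (chr6:112439900-112439929), on the strand of the gene. The label estrogen receptor core site below refers to this half-site alone. The motif ACGTG, the core of the hypoxia response element, stood on both strands in CACGTG, next to a GC box, GGGCGG on the other strand (chr6:112439845-112439874). Capitals mark the motif matches, and the sequences run 5′ to 3′ on the strand of the gene.
Oxtr estrogen receptor core site: gagaggacaggcAGGTCAgtgccagagtgc
Oxtr GC box and CACGTG site: cgggccCCGCCCCACGTGccacactttaaa

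The window of Ednrb (chr14:104242919-104243168, minus strand) lies outside its annotated exons, inside introns of 2 of 3 transcripts. On the other strand it held the CCAAT box at 2 places and AGAACA, a half-site of the progesterone and glucocorticoid response element, at 1 place. On its own strand it held TGACG, a half-site of the cyclic AMP response element. The window of Rgs2 had 72.4% G and C. The 238 of its bases outside exons (chr1:145851292-145851529, minus strand) held GGGCGG at 4 places, TGACG at 2 places and CCAAT at 1 place.
Ednrb upstream window: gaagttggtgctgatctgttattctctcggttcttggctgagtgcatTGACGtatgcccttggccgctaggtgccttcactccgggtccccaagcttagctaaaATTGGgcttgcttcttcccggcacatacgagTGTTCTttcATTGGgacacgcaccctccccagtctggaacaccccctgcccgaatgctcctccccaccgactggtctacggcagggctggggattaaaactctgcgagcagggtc
Rgs2 upstream window: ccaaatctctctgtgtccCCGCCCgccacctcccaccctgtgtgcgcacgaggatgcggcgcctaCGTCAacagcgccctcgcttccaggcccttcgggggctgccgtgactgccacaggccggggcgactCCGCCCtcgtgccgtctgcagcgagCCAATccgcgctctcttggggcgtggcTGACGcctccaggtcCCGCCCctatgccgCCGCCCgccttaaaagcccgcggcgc

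Each motif was searched on both strands in the 250 bases before the start. Of 27025 RefSeq promoters of this length, 13.8% held AGGTCA, 16.6% ACGTG, 32.9% GGGCGG, 34.5% CCAAT, 16.2% AGAACA, 17.9% TGACG and 13.0% TATAAA. Of the 10366 that belong to genes of the table, 10.8% held AGGTCA, 21.1% ACGTG, 57.2% GGGCGG, 36.0% CCAAT, 11.0% AGAACA, 25.8% TGACG and 6.85% TATAAA. Among the 7 promoters of the genes followed here, AGGTCA and ACGTG were found in that of Oxtr alone and AGAACA in that of Ednrb alone, GGGCGG was found in 3 (Oxtr, Rgs2 and Lnpep), CCAAT in 4 (Ednrb, Rgs2, Rgs5 and Edn1) and TATAAA in 0. A match is a description of the letters, and these data do not measure binding.

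To ask which of these genes differ between the libraries, genes with 200 copies or more in both libraries together (6547 genes) were compared by the test of Audic and Claverie. A gene was called at a false discovery rate (FDR) under 0.05 and a change of 1.5-fold or more. The test compares those 2 libraries, not the conditions, since pooling leaves 1 measurement for each condition. Of the 8 genes, 5 passed the copy number filter. Oxtr rose in Dox−, Ednrb and Rgs2 fell, and Ednra and Rgs5 were not called. By the same rule 15.2% of all genes compared were called higher and 14.7% lower. At a fold change of at least 2 the same 3 genes were called, against 4.61% of all genes higher and 5.62% lower. At 5-fold Oxtr and Rgs2 were called, against 0.642% higher and 0.748% lower. The median log2 ratio, Dox− over Dox+, was -0.56 over the 5 genes and 0.03 over all genes compared.

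**Figure D1:**
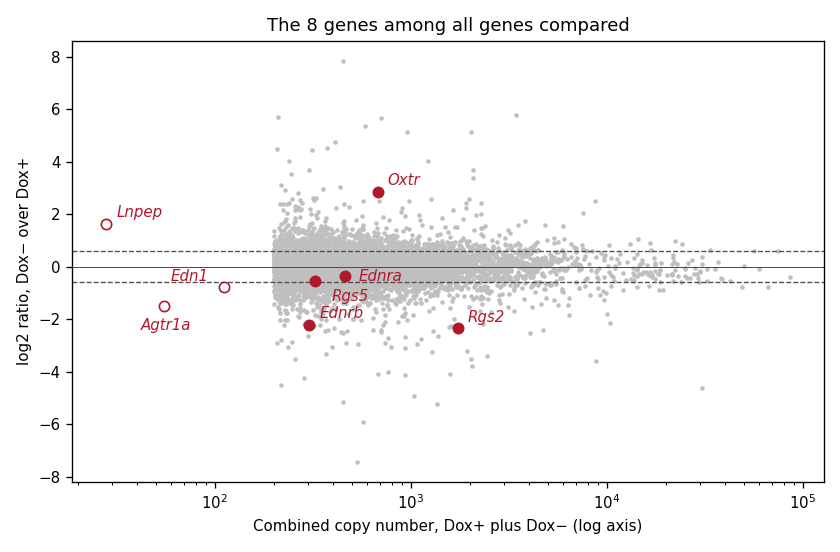
Log2 ratio, Dox− over Dox+, against the combined copy number (log axis) for the 6547 genes compared (grey) and the 8 genes followed here (red, open where the combined copy number is under 200). Dashed lines mark a fold change of 1.5. Oxtr at 2.85 stands above the bulk of the genes, Ednrb at -2.21 and Rgs2 at -2.34 stand below it, and Ednra and Rgs5 lie within it.

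Oxtr (gene 18430, chromosome 6, 112423678 to 112440884, minus strand) encodes the oxytocin receptor. The gene had 84 copies in Dox+, or 14.0 TPM (95% interval 11.2 to 17.4), and 593 copies in Dox−, or 101 TPM (93.5 to 110). The Dox− value lay above the Dox+ value, and the intervals were far apart. The fold change was 7.23 (5.75 to 9.20), the 22nd largest rise among the 6547 genes. All intervals given for levels are exact Poisson intervals and those for fold changes exact Clopper-Pearson intervals. They cover counting error only, so that variation between animals is not in them.

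Of the tissues that express Oxtr, the epithelial markers together were 1.46-fold higher in Dox− and the smooth muscle markers 1.45-fold lower. Single epithelial markers were between 1.14-fold (Krt8) and 3.43-fold (Krt7) higher. Single smooth muscle markers were between 1.26-fold (Tagln) and 1.89-fold (Smtn) lower. The part of tissue composition in the rise of Oxtr was not tested. Of all genes compared, Il17ra (34 and 233 copies), the interleukin 17 receptor, and Slc28a3 (27 and 202 copies), a nucleoside transporter, had the log2 ratios nearest to that of Oxtr, at distances of 0.04 and 0.08. This likeness rests on 2 libraries.

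Lnpep (gene 240028, chromosome 17, 17664687 to 17761453, minus strand) encodes leucyl-cystinyl aminopeptidase, known as oxytocinase, which cleaves oxytocin and vasopressin. Its 7 copies in Dox+ (1.17 TPM, 0.470 to 2.41) and 21 in Dox− (3.59 TPM, 2.22 to 5.49) are few, and their intervals overlap. The fold change was 3.07 with a wide interval of 1.26 to 8.56, and the gene stood under the copy number filter. The fold changes of Oxtr and Lnpep differed by a factor of 2.35 with an interval from 0.818 to 5.96, so their rank was not settled at this depth. Of the other genes of this system, Avpr1a, a vasopressin receptor, had 4 copies in Dox+ and was listed at 0 in Dox−. Tags with fewer than 2 copies had been dropped, so that a gene listed at 0 can have had a tag and no upper limit is given. Oxt, Avp, Avpr1b and Avpr2 were not among the genes of the table.

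**Figure D2:**
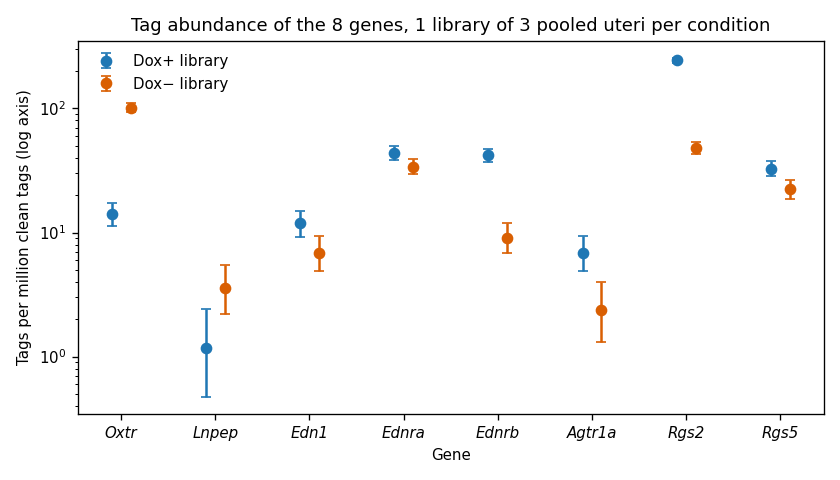
TPM, copies per 1000000 clean tags (log axis), of the 8 genes in the Dox+ (blue) and Dox− (orange) library, 1 library of 3 pooled uteri each. Bars are exact 95% Poisson intervals of the counts. Oxtr rises from 14.0 to 101, Ednrb and Rgs2 drop to 9.07 and 48.1, and the intervals of Ednra, Lnpep and Edn1 overlap between the libraries.

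For endothelin, the ligand, both receptors and the enzymes that make and degrade the peptide were compared. Ednrb fell in Dox−, Ednra was not called, and the ligand Edn1 had fewer copies in Dox− than in Dox+. Of the 8 genes of the endothelin list, 7 had a lower share of tags in Dox−, among them Ece2 at a ratio of 0.994 (0.695 to 1.42). The same share over all genes was not counted. The 4 that passed the filter included Ednra and Ednrb. Of these 4, 2 were called lower and 0 higher, beside 14.7% lower and 15.2% higher of all genes compared. Their median log2 ratio was -1.33 against 0.03 over all genes compared, and it became -0.62 from a combined copy number of 100.

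Edn1 (gene 13614, chromosome 13, 42396639 to 42403358, plus strand) encodes the precursor of endothelin-1. It had 71 copies in Dox+ (11.9 TPM, 9.26 to 15.0) and 40 in Dox− (6.84 TPM, 4.89 to 9.32). The Dox− value was lower, with intervals that just overlap. The level in Dox+ was 1.73-fold that in Dox− (1.16 to 2.62), and with 111 copies in sum the gene was under the filter. The other ligand genes were also few in copies and lay on either side of Edn1. Edn2 had 6 copies in Dox+ and 21 in Dox−, a fold change of 3.58 (1.40 to 10.9). Edn3 had 72 copies in Dox+ and 2 in Dox−, a level 35.1-fold higher in Dox+ (9.38 to 296). Edn1 therefore made up 49.7% of the tags of Edn1 and Edn3 in Dox+ (71 of 143, 41.2 to 58.1%) and 95.2% in Dox− (40 of 42, 83.8 to 99.4%). The fold change of Edn1 was 20.0 times that of Edn3 (4.88 to 178) and 6.13 times below that of Edn2 (2.17 to 20.1).

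Ednra (gene 13617, chromosome 8, 80186930 to 80248363, minus strand) encodes the endothelin A receptor, which contracts smooth muscle. The Dox+ library held 263 copies (43.9 TPM, 38.8 to 49.6) and the Dox− library 199 (34.1 TPM, 29.5 to 39.1). The intervals overlap slightly. The level was 1.29-fold higher in Dox+ (1.07 to 1.56), under the fold threshold.

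Ednrb (gene 13618, chromosome 14, 104213842 to 104243390, minus strand) encodes the endothelin B receptor, which is known for nitric oxide release in the endothelium and for clearance of endothelin. It had 251 copies in Dox+ (41.9 TPM, 36.9 to 47.5) and 53 in Dox− (9.07 TPM, 6.79 to 11.9). The libraries did not overlap in their intervals. Ednrb fell to a level 4.62-fold lower (3.43 to 6.34), the 56th largest fall among the 6547 genes.

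Both receptors had like shares of tags in Dox+, where Ednra made up 51.2% of the 514 tags of the pair (46.8 to 55.6%). In Dox− it made up 79.0% of 252 tags (73.4 to 83.8%). The fold change of Ednra was 3.58 times that of Ednrb (2.50 to 5.18), an inequality beyond counting error that does not depend on the library sizes. The fold change of Edn1 could not be told from that of Ednra, with a ratio of 0.745 (0.471 to 1.17). These comparisons with Edn1, Edn2 and Edn3 were chosen after the values were seen.

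Among the enzymes, Mme, the membrane metalloendopeptidase neprilysin that degrades endothelin, fell from 402 to 71 copies, a level 5.53-fold lower (4.29 to 7.22). Ece1, which converts the precursor into the active peptide, had 875 and 624 copies and was not called (1.37-fold lower, 1.23 to 1.52). Ece2 had 67 and 65 copies. The endothelial markers Cdh5 and Tie1 were also called lower, with 446 and 216 copies and 191 and 100 copies, while Pecam1 had 243 and 253. Under the filter, Tek had 87 and 51 copies, Emcn 108 and 64 and Flt1 36 and 27. Kdr, also under it, went the other way with 10 and 17. The level of Cdh5 was 2.02-fold lower in Dox− (1.71 to 2.38), an interval below that of Ednrb, whereas that of Esam (93 and 38 copies, 2.39-fold lower, 1.62 to 3.58), under the filter, overlapped it. The part of the endothelial share in the values of Edn1 and Ednrb was not tested.

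**Figure D3:**
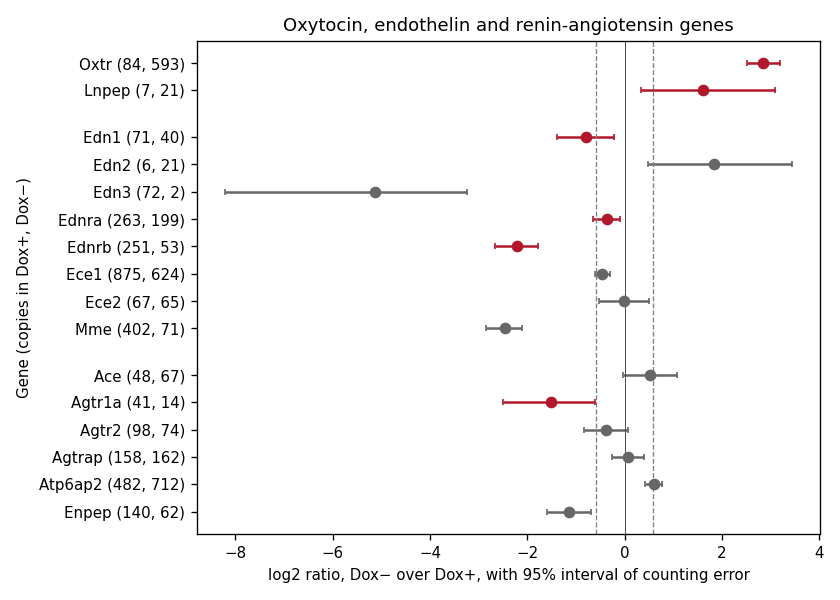
Log2 ratio, Dox− over Dox+, of the genes of the oxytocin, endothelin and renin-angiotensin lists with a tag in both libraries, with copies in Dox+ and Dox− in brackets. Bars are 95% intervals of counting error, red points are genes followed here, and dashed lines mark a fold change of 1.5. Oxtr lies at 2.85 and Ednrb at -2.21, and Edn3, with 2 copies in Dox−, has the widest bar.

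Agtr1a (gene 11607, chromosome 13, 30428310 to 30474736, plus strand) encodes the type 1A angiotensin II receptor, which constricts vessels. It had 41 copies in Dox+ (6.85 TPM, 4.92 to 9.29) and 14 in Dox− (2.40 TPM, 1.31 to 4.02). The Dox− value was lower and the intervals did not overlap. The level in Dox+ was 2.86-fold that in Dox− (1.53 to 5.68), but the 55 copies put the gene under the filter. Its close relative Agtr1b was not among the genes of the table, and tags that match both genes would not have been counted.

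Agtr2, the type 2 receptor that opposes the type 1 receptor in many tissues, had 98 and 74 copies, a ratio of 0.773 whose interval (0.564 to 1.06) includes 1. Of the 12 genes of the renin-angiotensin list 9 were in the table and 3 passed the filter. Enpep, the aminopeptidase that cleaves angiotensin II, fell from 140 to 62 copies, a level 2.20-fold lower (1.62 to 3.02). Atp6ap2, the prorenin receptor, rose from 482 to 712 copies, 1.51-fold (1.35 to 1.70), just past the threshold, and with TMM library sizes it was 1.49-fold higher and not called. Agtrap, which promotes uptake of the type 1 receptor, had 158 and 162 copies. The converting enzyme gene Ace had 48 and 67 copies. Agt, the precursor gene, had 6 copies in Dox+ and 0 in Dox−, and Ren2 had 0 and 11.

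Rgs2 (gene 19735, chromosome 1, 145846468 to 145851291, minus strand) encodes an RGS protein that acts on Gq, the G protein of the oxytocin, endothelin A and angiotensin receptors. The Dox+ library held 1462 copies (244 TPM, 232 to 257) and the Dox− library 281 (48.1 TPM, 42.6 to 54.0). The intervals were far apart. Rgs2 fell to a level 5.08-fold lower (4.47 to 5.79), the 49th largest fall among the genes compared. Its fold change and that of Oxtr were in opposite directions and differed by a factor of 36.6 (28.1 to 48.2). Its fall could not be told from that of Ednrb, since the fold change of Ednrb was 1.10 times that of Rgs2 (0.780 to 1.53), a comparison chosen after the values were seen. Penk (339 and 65 copies), the precursor of enkephalins, and Acot7 (1307 and 261 copies), an acyl-CoA thioesterase, had the log2 ratios nearest to that of Rgs2, at distances of 0.0035 and 0.06 over the 2 libraries.

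Rgs5 (gene 19737, chromosome 1, 171585632 to 171625944, plus strand) encodes an RGS protein that is widely used as a marker of pericytes. It had 196 copies in Dox+ (32.7 TPM, 28.3 to 37.7) and 130 in Dox− (22.2 TPM, 18.6 to 26.4). The Dox− interval lay below that of Dox+. The level was 1.47-fold higher in Dox+ (1.17 to 1.85), short of the threshold of 1.5. With median-ratio library sizes, or with the threshold of 0.5 on the absolute log2 ratio that the methods use, Rgs5 was called lower. The other pericyte markers were also lower in Dox−, of which Cspg4 (240 and 89 copies) and Kcnj8 (214 and 114) were called, while Pdgfrb had 185 and 136, Notch3 91 and 52 and Abcc9 109 and 82. The list as a whole was 1.68-fold lower in sum, Rgs5 included. The part of pericyte content in the value of Rgs5 was not tested.

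The genes Rgs2 and Rgs5 changed unequally, as the fold change of Rgs5 was 3.45 times that of Rgs2 (2.65 to 4.49). Rgs5 made up 11.8% of the 1658 tags of the pair in Dox+ (10.3 to 13.5%) and 31.6% of 411 in Dox− (27.2 to 36.4%). Of 21 genes of the RGS family, 17 were in the table and 5 passed the filter. Rgs2 was called lower and Rgs3, another RGS protein that acts on Gq and Gi, rose from 269 to 711 copies, 2.71-fold (2.35 to 3.13). Rgs19 with 350 and 284 copies and Rgs10 with 138 and 193 were not called. Over these 5 genes the median log2 ratio stood at -0.27.

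Receptors and effectors of contraction and relaxation were followed in the remaining lists. Of 18 other receptors linked to contraction, most but not all of them Gq-coupled, 14 were in the table. Of these, 5 had a ratio above 0 on the log2 scale and 7 below. The sole gene past the filter, F2r, the thrombin receptor, fell from 710 to 83 copies, a level 8.35-fold lower (6.65 to 10.6). Under the filter, Hrh1, the histamine H1 receptor, had 5 copies in Dox+ and 68 in Dox−, 13.9-fold more (5.69 to 44.3). Also under it, Ptger3, a prostaglandin E2 receptor, had 160 and 33, a level 4.73-fold lower (3.24 to 7.11). Ptgfr, a prostaglandin F receptor, had 30 and 4, a level 7.32-fold lower (2.58 to 28.6). Of 16 genes linked to relaxation, each in the table, 13 had a lower share of tags in Dox−. The same share over all genes was not counted. Some of the 13 had intervals of the ratio that include 1, such as Calcrl (0.609 to 1.02) and Vipr1 (0.281 to 2.31). Others had intervals below 1, such as Vipr2 (58 and 4 copies, 0.0186 to 0.191), under the filter. Ptgir had 15 copies in Dox+ and was listed at 0 in Dox−. The 4 that passed the filter had a median log2 ratio of -0.72, against 0.03 over all genes compared. Of these, Ptger4, a prostaglandin E2 receptor (188 and 60 copies), and Npr1, the natriuretic peptide receptor (400 and 182), were called lower, beside 14.7% of all genes compared. The 11 genes of Gq, phospholipase C and calcium release that passed the filter had a median of 0.41, against 0.03 over all genes compared. Of the 11, 3 were called higher and 0 lower, beside 15.2% and 14.7% of all genes compared. Plcb3, a phospholipase C (251 and 383 copies), and the IP3 receptors Itpr1 (90 and 139) and Itpr3 (101 and 163) were called, while the G protein genes Gnaq (222 and 224) and Gna11 (581 and 389) were not.

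Among the 20 genes of smooth muscle contraction 16 passed the filter, with a median of -0.32. Mylk, the myosin light chain kinase (9121 and 5256 copies), and Cnn1, calponin (4866 and 2851), fell. Rock1 (111 and 262 copies) and Rock2 (173 and 325), kinases that act on myosin phosphatase, and Gja1, the gap junction protein connexin 43 (875 and 1307), rose. With median-ratio library sizes Gja1 was 1.49-fold higher and not called, and Acta2 and Ppp1r14a, a smooth muscle actin and an inhibitor of myosin phosphatase, were then called lower. Of the receptor kinases and arrestins, which switch these receptors off, 3 of 6 passed the filter with a median of 0.51, and Adrbk1, known as GRK2, was called higher with 196 and 299 copies. Over all 9 lists, 48 genes passed the filter, of which 20.8% were called higher and 18.8% lower, beside 15.2% and 14.7% of all genes compared. The 48 include the 5 genes followed here that passed it, so Oxtr, Ednrb and Rgs2 are counted again in these shares.

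**Figure D4:**
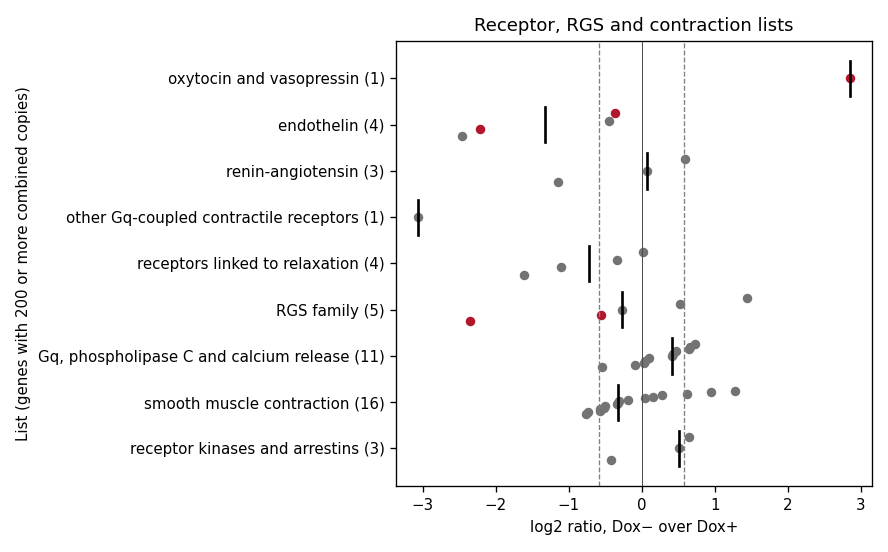
Log2 ratio, Dox− over Dox+, of the genes that passed the filter of 200 copies in each of 9 lists, with the number of such genes in brackets. Black bars are medians, red points are genes followed here, and dashed lines mark a fold change of 1.5. The median of the endothelin list lies at -1.33 and that of the Gq and calcium release list at 0.41.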

How the data were processed

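Total RNA of 3 pooled uteri per condition was profiled by DGE in 1 Dox+ and 1 Dox− library. Tags made of adaptor, tags of poor quality and tags with fewer than 2 copies were dropped by the authors, who aligned the remaining clean tags to mouse transcripts of mm9 and counted the unambiguous ones. The submitters' processing notes name CASAVA and mm9. The aligner and the enzyme are not given in the sources used here, and the sample labels mention mRNA fragmentation, which would not apply to tags. The deposited counts are the copies of each gene, without normalization. TPM was deposited by the authors as well, as copies per 1000000 clean tags, with 0.01 at a count of 0 and no length correction, and levels were not ranked between genes. All 27998 TPM values above 0 copies matched the copies within 0.0051, which gave the clean tags used as library sizes. The authors' ratios, P-values and FDR were not used.

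The Audic-Claverie P-value was 2-sided, with Benjamini-Hochberg adjustment over all 14678 genes. Fold changes have no pseudocount, and a count of 0 was set to 3 copies where a list's ratio needed it. Ratios of fold changes are conditional odds ratios with exact intervals. Alternatives were other library sizes, filters, thresholds, Fisher's exact test and the edgeR exact test with assumed coefficients of variation. Methods were tested on simulated Poisson counts, which hold no variation between animals or pools, so the test does not cover that variation. Positions are from GENCODE of NCBIM37. The genes followed and the lists were chosen with earlier results of these data known. The text names the 8 genes, the called genes of each list, the other genes of the 3 hormone systems, the 2 genes nearest in ratio to Oxtr and to Rgs2, and, chosen after their values were seen, further uncalled genes and markers. Planned protein comparisons were not made. Python 3.11.15, scipy 1.17.1, R 4.3.3 and edgeR 4.0.16 were used.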

Additional observations from a re-analysis of the deposited data

How the results depend on the processing

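With 1 library per condition, the spread between animals and pools is unknown, and the edgeR exact test could be run with assumed values alone. With an assumed coefficient of variation of 0.1 or 0.2, Oxtr, Ednrb and Rgs2 were still called. With 0.4 none of the 3 passed at their log2 ratios of 2.85, -2.21 and -2.34 (adjusted p in edgeR 0.17, 0.55 and 0.41), and 0 of the 8 genes were called in either direction. Over all genes the calls dropped to 147 higher and 174 lower with 0.2 assumed and to 16 and 17 with 0.4. Of the 19 genes called in the pathway lists, 7 kept their call with 0.2 assumed (Oxtr, Ednrb, Rgs2, Rgs3, F2r, Mme and Ptger4). Rgs5 was called with median-ratio library sizes, at a log2 ratio of -0.59. Without a filter on the copy number, 2 of the 8 genes were called higher (Lnpep added) and 4 lower (Edn1 and Agtr1a added), and over all genes 2044 and 2077. From a combined copy number of 100, 3 of the 8 genes were called lower (Edn1 added), and over all genes 1444 higher and 1366 lower. At an absolute log2 ratio above 0.5, 3 were called lower (Rgs5 added), and over all genes 1231 and 1168. At a fold change of at least 2, 302 genes were higher and 368 lower. The genes called in the pathway lists, 10 higher and 9 lower, became 18 higher and 25 lower without a filter, and 14 lower from a combined copy number of 100. The endothelin median became -0.62 from 100 copies and also without a filter, and that of the genes linked to relaxation -1.17 without one. Taking means, the smooth muscle contraction list stood at -0.095 and the receptor kinases and arrestins at 0.24. For these results the cause of the move was not tested, apart from the filters, which change the genes counted. The remaining 132 of 156 values, among them the counts over all genes and over the 8 genes from 100 copies and at a log2 ratio of 0.5, stayed within 1.5 times for counts of genes, kept direction and call for genes past the filter, and otherwise moved by less than the counting interval of the gene or, for a list median, the median half-width of its genes' intervals. No paired analysis was possible because each condition has 1 library.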
